A study of Mus musculus with 6 samples.

Results

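The simple and mucosal keratins described here are 10 genes, listed by name with earlier results of these data known, out of 53 keratin genes and 30349 genes listed in all. They comprise 6 keratins of simple (single-layered) epithelia, Krt7, Krt8, Krt18, Krt19, Krt20 and Krt23, 3 of the mucosal stratified epithelia, Krt4, Krt13 and Krt76, and Krt80. RNA came from primary epidermal keratinocytes of mice at postnatal day 2, in 3 cultures of genotype p63 alphaKO (replicates 9, 10 and 11) and 3 wild type cultures (replicates 13, 14 and 15). Both groups were grown for 5 to 6 days to confluence in low-calcium medium (calcium 0.05 mM, EGF 2.5 ng/mL, chelated serum 4%). The assay was 3' digital sequencing, which counts reads near transcript ends. The sources used here give neither the segment of Trp63 that p63 alphaKO removes, nor the strain, nor whether cultures of a group came from separate animals. The p-values therefore measure the spread between these cultures, which may be technical.

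Keratins are the intermediate filament proteins of epithelial cells, and a filament is built from pairs of a type I and a type II protein. Krt8 (type II) and Krt18 (type I) are the first keratins of the embryo and the main pair of simple epithelia, while Krt4 and Krt13 pair in the non-cornified lining of mouth and oesophagus. Interfollicular epidermis uses Krt5 with Krt14 in its basal layer and Krt1 with Krt10 above it. Trp63 encodes p63, a transcription factor needed to stratify the epidermis, and mouse embryos with no p63 keep a single-layered surface ectoderm that carries Krt8 and Krt18. The question for these genes is whether simple or mucosal keratins differ between p63 alphaKO and wild type keratinocytes.

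The libraries numbered 1699716 to 2999246 reads each for p63 alphaKO and 3146374 to 3215333 each for wild type. Levels are given as CPM, the reads of a gene per 1000000 reads in its library. A gene listed at 0 may still be expressed at a low level. The level of 3 reads, used here as a floor, was 1.00 to 1.76 CPM in p63 alphaKO libraries and 0.933 to 0.953 CPM in wild type libraries. All 8 keratinocyte markers checked (Krt5, Krt14, Trp63, Itga6, Itgb4, Col17a1, Dsg3 and Perp) were read, at a summed 21581 to 29332 CPM in p63 alphaKO and 25400 to 27930 CPM in wild type. Trp63 itself was at 55.4 ± 4.98 CPM in p63 alphaKO and 46.7 ± 7.81 CPM in wild type (SD, n = 3 each), a level per gene that does not check the genotype. Along the first principal component, which held 33.2% of the variance, p63 alphaKO replicate 11 scored 61.2 and wild type replicate 15 scored 13.6, against -26.9 to -8.74 for the other 4 libraries. The fold change of each tested keratin is given with and without these 2 libraries. Along the second component, which held 22.9% of the variance, wild type libraries scored 2.97 to 39.0 and p63 alphaKO libraries -30.0 to -9.24.

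Of the 10 keratins, 7 had a read in any library and 4 (Krt7, Krt23, Krt4 and Krt80) had reads in every library. Krt13, Krt19 and Krt20 had no read in any of the 6 libraries. Krt7, Krt18, Krt23, Krt4 and Krt80 reached a mean of 1 CPM over the 6 libraries and were tested with limma on log2(CPM + 1). None of the 5 passed the threshold of 0.05 on the Benjamini-Hochberg adjusted p, where 0.0427% of the 11716 genes tested did, and 0 of the 5 had an unadjusted p under 0.05 with limma, edgeR or DESeq2, where 6.36% of all genes tested did with limma. The libraries of the groups overlapped for all 5, while 11.5% of the genes tested had groups that did not overlap. Of all keratin reads, the 10 genes together took 0.302% ± 0.0805 in p63 alphaKO and 0.349% ± 0.0645 in wild type (SD, n = 3 each).

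All 10 genes lie in the keratin clusters of GRCm38. Krt20 (chromosome 11, 99428403 to 99438150), Krt23 (99477974 to 99493137), Krt13 (100117327 to 100121566) and Krt19 (100140810 to 100148665) are on the minus strand of chromosome 11 with the other type I keratins. Krt80 (chromosome 15, 101347444 to 101370162, minus strand), Krt7 (101411043 to 101430313, plus strand), Krt76 (101884351 to 101892920, minus strand), Krt4 (101918535 to 101924735, minus strand) and Krt8 (101996698 to 102004482, minus strand) are in the type II cluster of chromosome 15. Krt18, although of type I, lies beside Krt8 on that chromosome (102028180 to 102032027, plus strand). Krt7, Krt8, Krt76 and Krt80 overlap annotated genes on the opposite strand, so with no strand setting stated for the counting their reads could include antisense ones. Only the last 300 bases of the longest protein-coding transcript of each gene were searched for near copies. There Krt18 matched the processed pseudogene Gm5200 at 90.4% identity over 230 bases. Krt7 matched transcripts of 42 other genes, many of them retained introns, at 90% or more over at least 50 bases. The counts of those 2 genes are uncertain for that reason, and the other 8 had no such match.

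The sequence just before the transcription start is shown for 5 of the genes, because they span the range from reads in every library to none while each has the same short motif before its start. Each is the 80 bases before the RefSeq start on the gene's own strand in GRCm38.p6, 5′ to 3′. Capitals mark ATAAA, letters that also lie within the longer motif TATAAA. Krt7 and Krt23 were read in all 6 libraries, Krt76 in 3, and Krt13 and Krt20 in none.
Krt7, chr15:101412323-101412402, plus strand: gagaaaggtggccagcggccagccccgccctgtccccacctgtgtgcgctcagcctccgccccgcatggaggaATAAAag
Krt23, chr11:99493121-99493200, minus strand: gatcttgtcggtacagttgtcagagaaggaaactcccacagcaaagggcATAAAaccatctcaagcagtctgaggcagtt
Krt76, chr15:101892921-101893000, minus strand: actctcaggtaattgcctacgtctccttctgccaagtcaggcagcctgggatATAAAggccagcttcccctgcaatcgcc
Krt13, chr11:100121567-100121646, minus strand: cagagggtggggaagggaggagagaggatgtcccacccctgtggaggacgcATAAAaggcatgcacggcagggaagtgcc
Krt20, chr11:99438154-99438233, minus strand: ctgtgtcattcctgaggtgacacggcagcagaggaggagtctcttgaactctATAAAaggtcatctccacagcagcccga
ATAAA begins 31, 28, 29 and 28 bases before the start in Krt23, Krt76, Krt13 and Krt20, and 7 bases before the RefSeq start in Krt7. It was chosen as a motif after the sequences were seen, and on the gene's own strand it occurs in 9.27% of 32851 start regions of that length. The 7 genes with a start region in the RefSeq table also include Krt8 and Krt18, which hold no ATAAA in this window. The window of an alternative start of Krt13 also holds none on the gene's own strand. RefSeq and GENCODE place some starts differently: by GENCODE, all 80 bases of the Krt8 window, 36 of Krt18, 17 of Krt23 and 1 of Krt7 lie in annotated UTR, so for these genes the distances hold for the RefSeq start alone. Of the motifs chosen earlier, counted on both strands and overlaps included, TATAAA occurs in Krt76 and Krt20 and in 4.75% of all start regions. TGANTCA, the AP-1 motif, occurs in 2.11% of all start regions, in none of the 5 windows printed, and in the window of an alternative start of Krt13. GGAA, the Ets core, occurs in all 5 windows printed and in 58.8% of all start regions. The window of 80 bases is shorter than the one planned. These matches describe letters in a window and not binding.

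The pair of simple epithelia, Krt8 and Krt18, had few reads or none in both genotypes. Krt8 was listed at 0 in p63 alphaKO replicates 9, 10 and 11, against 0, 0 and 1.27 CPM in wild type replicates 13, 14 and 15. All 4 of its reads thus came from 1 wild type library. Pooled over the group the wild type rate was 0.419 CPM, under the 0.436 CPM that 3 reads over the p63 alphaKO group make, so no fold is given. Krt18 was at 1.83, 2.00 and 0.59 CPM in p63 alphaKO replicates 9, 10 and 11, against 0.63, 0 and 6.04 CPM in wild type replicates 13, 14 and 15. These values stand for 4, 6 and 1 reads in p63 alphaKO libraries and 2, 0 and 19 in the wild type ones, so the highest and the lowest library are both wild type. The log2 fold change of Krt18 was 0.078 (SE 0.71, 95% interval -1.42 to 1.57, limma adjusted p = 0.997), and from the pooled reads the p63 alphaKO rate was 0.726 times the wild type rate (exact 95% interval 0.316 to 1.57). Without wild type replicate 15 that ratio was 5.11 (1.11 to 47.4), on 2 wild type reads. Without both libraries that stood apart the log2 fold change of Krt18 was 1.19 (limma adjusted p = 0.625). These intervals cover counting error alone. Whether molecular identifiers were used is unknown here, and without them reads are not independent molecules. The ratio of Krt8 to Krt18 was not tested, since neither reached 10 reads in every library.

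Krt7, the type II keratin of ducts and glands, was read in all 6 libraries. Its level was 12.79, 6.66 and 8.23 CPM in p63 alphaKO replicates 9, 10 and 11, against 3.46, 3.11 and 14.61 CPM in wild type replicates 13, 14 and 15. Wild type replicates 13 and 14 lay below every p63 alphaKO library and replicate 15 lay above all of them. The log2 fold change was 0.59 (SE 0.50, 95% interval -0.47 to 1.65, limma adjusted p = 0.913, n = 3 per group). Without wild type replicate 15 it was 1.21, and without both libraries that stood apart 1.26 (limma adjusted p = 0.684 and 0.474). Pooled reads gave a p63 alphaKO to wild type ratio of 1.28 (exact 95% interval 0.893 to 1.84). Without wild type replicate 15 that ratio was 2.74 (1.65 to 4.74), and these intervals cover counting error alone. Krt18 was the closest tested keratin to Krt7 over the 6 libraries (Pearson r of log2(CPM + 1) = 0.82), a likeness that rests on few Krt18 reads and on replicate 15, highest for both.

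Krt23, a type I keratin of simple epithelia, showed the smallest difference between group means of the 4 genes with reads in every library. It was at 7.31, 30.33 and 19.98 CPM in p63 alphaKO replicates 9, 10 and 11, against 19.17, 14.61 and 26.68 CPM in wild type replicates 13, 14 and 15. The p63 alphaKO group held both the lowest and the highest library, with a 4.15-fold range against 1.83-fold in wild type. The log2 fold change was -0.22 (SE 0.42, 95% interval -1.12 to 0.67, limma adjusted p = 0.986), and it was 0.32 without p63 alphaKO replicate 9 and -0.64 without replicate 10. Without both libraries that stood apart it was -0.14 (limma adjusted p = 0.956). Pooled reads gave a ratio of 1.02 (exact 95% interval 0.813 to 1.27), from 141 p63 alphaKO reads and 192 wild type reads. Krt75, a keratin of the hair follicle companion layer, was its closest tested keratin (r = 0.83 over 6 libraries).

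Krt19 and Krt20 had no read. Krt19 is a type I keratin with almost no tail domain, found in simple epithelia and in the hair follicle bulge, and Krt20 marks intestinal and urothelial cells and, in skin, Merkel cells. With 6887667 p63 alphaKO reads and 9542691 wild type reads in all, 0 reads allow up to 0.436 CPM in p63 alphaKO and 0.314 CPM in wild type, the level of 3 reads over each group. The summed level of the 6 simple keratins was 21.9, 39.0 and 28.8 CPM in p63 alphaKO and 23.3, 17.7 and 48.6 CPM in wild type, so the group ranges overlapped and the means were 29.9 CPM in each. In such bulk cultures, fewer cells of a type and less RNA per cell cannot be told apart.

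**Figure D1:**
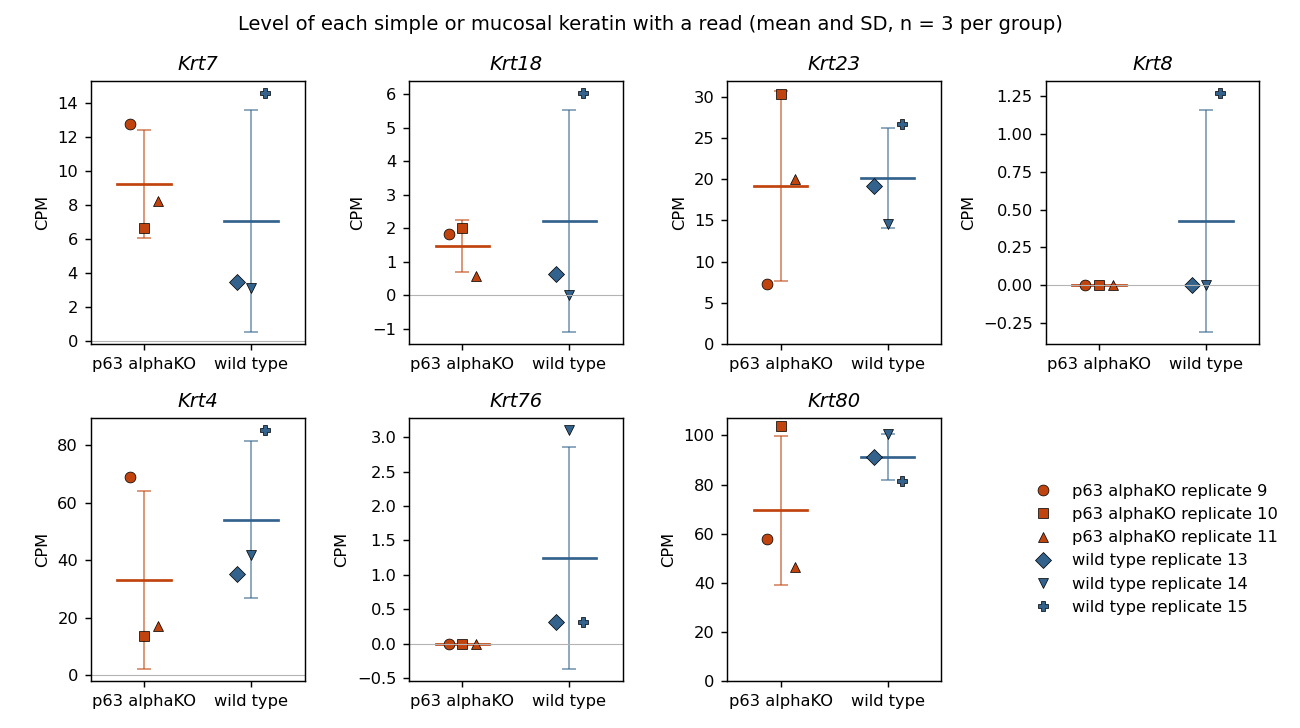
Level in CPM (y axis, a scale per panel) of the 7 simple or mucosal keratins with a read, by library, with p63 alphaKO left of wild type; points are libraries, lines the group mean and bars the SD (n = 3 per group), which can pass below 0. Krt7, Krt18, Krt8 and Krt4 are highest in wild type replicate 15, Krt23 and Krt80 in p63 alphaKO replicate 10, and the 3 p63 alphaKO libraries are at 0 for Krt8 and Krt76.

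Among the mucosal keratins only Krt4 was read at depth. Krt4, the type II keratin of suprabasal mucosal cells, was at 68.95, 13.66 and 17.05 CPM in p63 alphaKO replicates 9, 10 and 11, against 35.19, 41.97 and 85.45 CPM in wild type replicates 13, 14 and 15. The p63 alphaKO replicates 10 and 11 lay below every wild type library, and replicate 9 lay above 2 of the 3 wild type libraries. The means were 33.2 ± 31.0 CPM in p63 alphaKO and 54.2 ± 27.3 CPM in wild type (SD, n = 3 each), a log2 fold change of -0.95 (SE 0.47, 95% interval -1.94 to 0.031). The limma adjusted p was 0.780 and the unadjusted p 0.0568, from the fit across all genes.

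The libraries of a group differed in Krt4 by more than counting error. Replicate 9 of p63 alphaKO had 151 reads (exact 95% interval 58.4 to 80.9 CPM) and replicate 10 had 41 (9.80 to 18.5 CPM). The 221 p63 alphaKO and 516 wild type reads of Krt4 gave a ratio of 0.593 with an exact 95% counting interval of 0.505 to 0.696, and the libraries spanned 5.05-fold within p63 alphaKO and 2.43-fold within wild type. Without p63 alphaKO replicate 9 the log2 fold change was -1.65 (limma adjusted p = 0.339), and without replicate 10 it was -0.53. Without both libraries that stood apart it was -0.30 (limma adjusted p = 0.888). The closest tested keratin was Krt42 (r = 0.98), at 15.53, 5.67 and 5.29 CPM in p63 alphaKO and 11.63, 9.95 and 19.69 CPM in wild type, so both were highest in wild type replicate 15 and p63 alphaKO replicate 9. Over all genes tested, Sh3kbp1 (r = 0.986), Entpd5 (0.985) and Mad2l2 (0.980) followed Krt4 most closely over the 6 libraries, out of 11715 genes compared with it.

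Krt13, the type I partner of Krt4 in mucosa, had no read in any library, with the same limits of 0.436 CPM in p63 alphaKO and 0.314 CPM in wild type. A ratio of Krt4 to Krt13 was therefore not tested. Krt76, a type II keratin of the hard palate and other oral mucosa, was listed at 0 in p63 alphaKO replicates 9, 10 and 11, against 0.31, 3.11 and 0.32 CPM in wild type replicates 13, 14 and 15. Its groups did not overlap, but the wild type level stands for 1, 10 and 1 reads, and the mean of Krt76 was under the minimum for the test. The 12 wild type reads of Krt76, 1.26 CPM when pooled, were 2.89 times the level of 3 reads over the p63 alphaKO group. That ratio is not a lower bound on a difference, because it leaves out the counting error of the wild type rate. The exact counting interval was 0.650 to 2.20 CPM in wild type and reached 0.536 CPM in p63 alphaKO. In addition, 10 of the 12 reads came from wild type replicate 14. Without that library, the 2 remaining reads (0.316 CPM) lie under the 0.436 CPM of 3 p63 alphaKO reads and give no fold. With no filter on low values the limma adjusted p of Krt76 was 0.857 among 15588 genes.

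**Figure D2:**
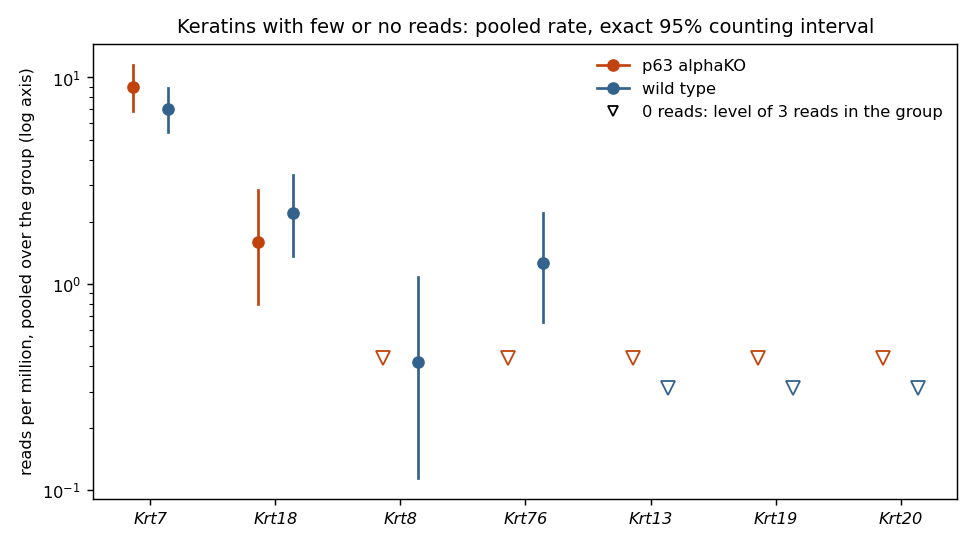
CPM from the reads pooled over each group (y axis, log scale) for the 7 keratins with the fewest reads, p63 alphaKO left of wild type for each gene; points with bars are the rate and its exact 95% counting interval, and open triangles mark 0 reads at the level of 3 reads in the group. Krt13, Krt19 and Krt20 have triangles alone in both groups, at 0.436 in p63 alphaKO and 0.314 in wild type, and the intervals of Krt7 and Krt18 overlap between the groups.

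Krt80, a type II keratin found in many epithelia near desmosomes, had the most reads of the set, 518 from p63 alphaKO and 870 from wild type. It was at 58.00, 103.97 and 46.43 CPM in p63 alphaKO replicates 9, 10 and 11, against 91.12, 100.41 and 81.64 CPM in wild type replicates 13, 14 and 15. The p63 alphaKO replicates 9 and 11 lay below all wild type libraries and replicate 10 lay above them all. The means were 69.5 ± 30.4 CPM in p63 alphaKO and 91.1 ± 9.39 CPM in wild type (SD, n = 3 each), a log2 fold change of -0.46 (SE 0.28, 95% interval -1.06 to 0.13, limma adjusted p = 0.843). It was -0.79 without p63 alphaKO replicate 10 and -0.22 without replicate 11. Without both libraries that stood apart it was -0.30 (limma adjusted p = 0.753). Pooled reads gave a ratio of 0.825 (exact 95% interval 0.738 to 0.921, counting error alone). That ratio was 0.581 (0.497 to 0.677) without p63 alphaKO replicate 10 and 0.928 (0.826 to 1.04) without replicate 11. The genes most like Krt80 over the 6 libraries were Dusp1 (r = 0.997), a phosphatase of MAP kinases, the nuclear receptor gene Rora (0.997) and Auts2 (0.995), and Krt15 was the closest tested keratin (0.71). Dusp1 did not pass the level of 3 reads in p63 alphaKO replicates 9 and 11 (1.37 and 0.59 CPM). With 6 libraries and 11715 genes compared, values of r this high are a description and no sign of a tie between the genes.

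**Figure D3:**
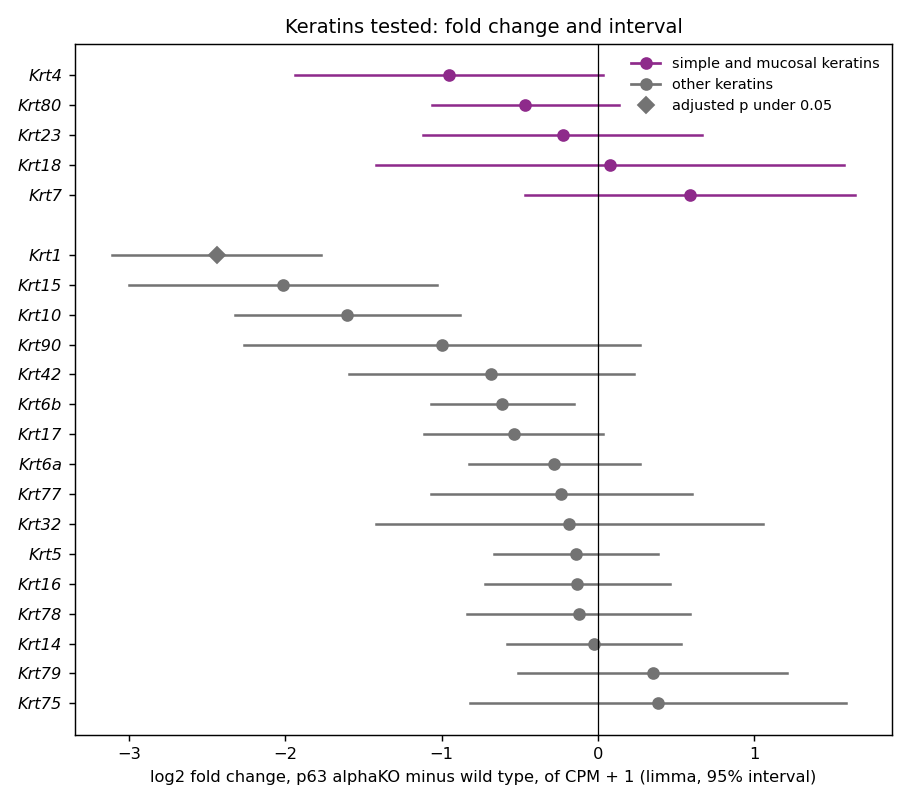
Log2 fold change, p63 alphaKO minus wild type, on log2(CPM + 1) (x axis) for the 21 keratins tested, with limma's 95% interval as a bar; simple and mucosal keratins stand at the top in purple, other keratins below in grey. All 5 purple intervals include 0, and the diamond marks Krt1, the 1 keratin past the threshold.

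Set beside the other keratins, the 5 tested genes did not form a group. They comprised 3 with a log2 fold change below 0 and 2 above, with a median of -0.22. The other 16 keratins tested comprised 14 below 0 and 2 above, with a median of -0.26 and 1 called, and over all 11716 genes 49.3% were below 0 with a median of 0.0064. The called keratin was Krt1, at 51.0 ± 21.9 CPM in p63 alphaKO and 278.5 ± 110.7 CPM in wild type (SD, n = 3 each; log2 fold change -2.44, limma adjusted p = 0.00686). It was not called by limma with no mean-variance trend, and DESeq2 called Krt10 as well (adjusted p = 0.0213). Limma without both libraries that stood apart also called 2 keratins. No 2 of the 5 genes followed each other as closely as Krt7 and Krt18 (r = 0.82), and the other 9 pairs had r from -0.53 to 0.41 over 6 libraries. Wild type replicate 15 was the highest library for 3 of the 5 genes (Krt7, Krt18 and Krt4) and p63 alphaKO replicate 10 for the other 2.

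**Figure D4:**
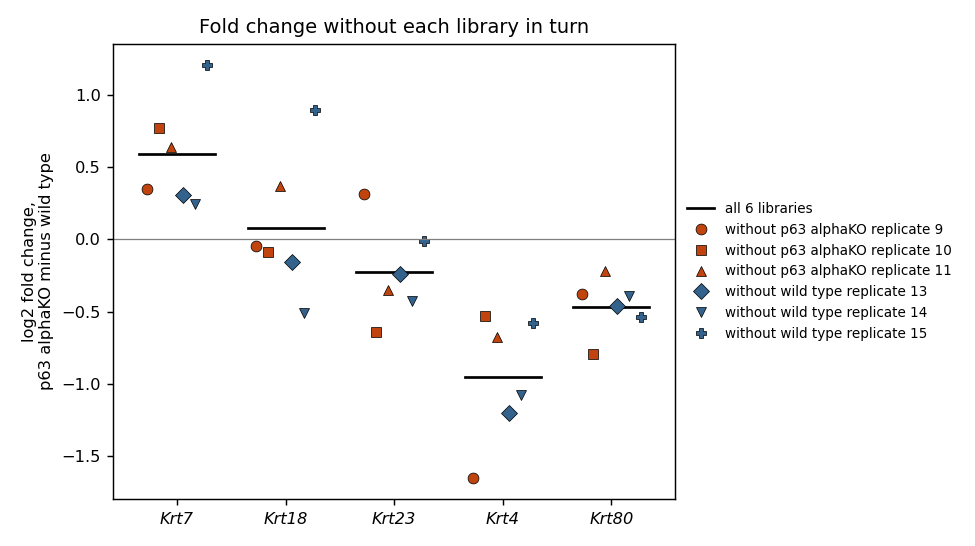
Log2 fold change of the 5 tested keratins (y axis, p63 alphaKO minus wild type) with all 6 libraries (black line) and without each library in turn (points, coloured by the group of the library left out). Krt7 stays above 0 and Krt4 and Krt80 below 0, from -1.65 to -0.53 and from -0.79 to -0.22, while Krt18 and Krt23 lie on both sides.

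Genes that accompany simple keratins elsewhere showed no called change. Of 16 tested simple epithelium genes, 10 had a log2 fold change above 0 and 6 below (median 0.13), a split that moved with single libraries: 14 and 2 without p63 alphaKO replicate 11, 12 and 4 without wild type replicate 13, and 8 and 8 without p63 alphaKO replicate 9 or 10 or wild type replicate 15. Spint2, a serine protease inhibitor, was at 23.5 ± 7.46 CPM in p63 alphaKO and 42.4 ± 7.95 CPM in wild type (log2 fold change -0.86, limma adjusted p = 0.716), and the claudin gene Cldn4 at 429.0 ± 91.2 CPM in p63 alphaKO and 321.8 ± 62.6 CPM in wild type (0.41, limma adjusted p = 0.817; SD, n = 3 each). Of 11 tested genes of the periderm, the transient outer cell layer of the embryo, 9 were below 0 (median -0.23). That list contains Krt4 and Krt18 and also Krt17 at -0.54 (limma adjusted p = 0.794).

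Genes of mucosal epithelium were likewise not called. Of 7 tested, 4 were below 0 (median -0.29), and without each library in turn 3 to 6 were, with 3 (median 0.031) without p63 alphaKO replicate 10 and 6 (median -0.24) without wild type replicate 13. By edgeR and by DESeq2, 5 of the 7 were below 0, with medians of -0.67 and -0.65. Crnn, encoding the oesophageal protein cornulin, was at 4.07 ± 0.82 CPM in p63 alphaKO and 10.3 ± 2.74 CPM in wild type (log2 fold change -1.13, limma adjusted p = 0.716). Emp1, an epithelial membrane protein gene, was at 147.0 ± 23.4 CPM in p63 alphaKO and 232.7 ± 48.7 CPM in wild type (-0.65, limma adjusted p = 0.716; SD, n = 3 each).

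Proteins that bind or anchor keratins and factors reported at simple keratin promoters had most fold changes below 0 with no gene called. Of 24 partners and linkers tested, 17 were below 0 (median -0.047), among them the desmosomal genes Pkp2 at -0.99 and Jup at -0.50 (limma adjusted p = 0.816 and 0.866). Of 25 factors, 20 were below 0 (median -0.14), among them the AP-1 genes Fosl1 at -1.02 and Jun at -0.49 (limma adjusted p = 0.811 and 0.827). Without p63 alphaKO replicate 11, 7 of 24 partners and 10 of 25 factors were below 0, with medians of 0.073 and 0.068. Without each of the other 5 libraries in turn, 13 to 18 partners and 18 to 21 factors were below 0.

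Markers of Merkel cells, which carry Krt20, had few reads, and those of hair follicle stem cells had more, mostly from Sox9 alone. The 13 Merkel cell markers summed to 6.66 to 8.82 CPM in p63 alphaKO and 4.77 to 5.91 CPM in wild type, with Krt20, Chgb, Snap25 and Tmem163 at 0 in all libraries. Cplx2 made most of each p63 alphaKO sum, at 6.39, 4.00 and 5.88 CPM in replicates 9, 10 and 11. In wild type replicates 13, 14 and 15 Cplx2 was at 1.89, 2.80 and 3.18 CPM (limma adjusted p = 0.817). Atoh1, the factor that specifies Merkel cells, was at 0 in p63 alphaKO and had a read in 1 wild type library (0.31 CPM). Isl1 was read in wild type alone (2.49 and 0.95 CPM in replicates 14 and 15). Insm1 was read in p63 alphaKO alone (0.46 and 1.33 CPM in replicates 9 and 10). Hair follicle stem cell markers, which accompany Krt19 in the bulge, summed to 251.0 to 439.2 CPM in p63 alphaKO and 278.0 to 498.3 CPM in wild type, of which Sox9 made 344.8 ± 100.6 CPM in p63 alphaKO and 372.3 ± 108.2 CPM in wild type (SD, n = 3 each). Of the 10 hair follicle markers, 2 (Lgr5 and Postn) were at 0 throughout, and none but Sox9 passed 18.7 CPM in any library.

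The library with the most Krt7, Krt18, Krt8 and Krt4 also had the most muscle RNA. In p63 alphaKO replicates 9, 10 and 11 the 10 muscle markers had a sum of 17.4, 30.0 and 74.7 CPM, against 79.2, 84.6 and 694.1 CPM in wild type replicates 13, 14 and 15, with 2 of the 10 at 0 in all libraries. In p63 alphaKO, replicate 9 had the most Krt4 and Krt7 and the lowest muscle sum. Sebaceous and sweat gland markers summed to 207.5 to 511.2 CPM in p63 alphaKO and 291.0 to 460.6 CPM in wild type, melanocyte markers to 233.9 to 1037 CPM in p63 alphaKO and 311.3 to 831.7 CPM in wild type, and fibroblast markers to 7.06 to 43.0 CPM in p63 alphaKO and 16.8 to 44.6 CPM in wild type. Immune markers summed to at most 8.67 CPM in any library, and endothelial markers to at most 5.29 CPM. The part of these other cells in the keratin values was not tested.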

How the data were processed

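The deposited table gives CPM with 2 decimals for 6 libraries, a unit read from the values themselves: columns sum to 999047 to 999508. Per the submitters' processing notes, the tools were STAR and HTSeq and the build mm10, with roles unstated. Versions, annotation, strand setting and use of molecular identifiers are unknown from these sources. Dividing by the value of 1 read gave whole reads, within 0.1 read, for at least 99.97% of values above 0. The main test was limma 3.58.1 (R 4.3.3, mean-variance trend, two-sided) on log2(CPM + 1), for the 11716 genes whose mean over 6 libraries reached 1 CPM, with Benjamini-Hochberg adjustment over all of them and a threshold of 0.05. Since the unit is CPM, edgeR 4.0.16 and DESeq2 1.42.0 on the recovered reads are alternatives: they called 2 and 15 genes, against 5. The test was tried on simulated data with the same spread between libraries set for every gene. The outcome of that trial is not reported here, and no result above rests on it. Pooled rates have exact 95% Poisson or binomial intervals. Positions come from GENCODE vM21 on GRCm38 (mm10) and start regions from RefSeq on GRCm38.p6, where 7 of the 10 genes were matched. All 10 keratins are named. From other lists, members past the threshold were named, or up to 2 of smallest p where none passed. The members, lists and alternatives were chosen with earlier results of these data known.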

Additional observations from a re-analysis of the deposited data

How the results depend on the processing

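No paired analysis was possible because the groups share no replicate number. No result was singled out for a closer look, since groups of 3 libraries are too small for a test of outlying samples and the design has 1 contrast. The libraries said to stand apart, p63 alphaKO replicate 11 and wild type replicate 15, were picked without a test, from the first principal component. No simple or mucosal keratin was called under any of 16 alternatives. The number of genes called over all genes, 5, was 2 with a pseudocount of 0.5, 3 with a pseudocount of 5, 1 with no filter, 2 with a minimum mean of 5 CPM, 2 by edgeR, 15 by DESeq2, 0 by limma with no mean-variance trend (827 at an unadjusted p under 0.05), 2 to 12 without each library in turn (p63 alphaKO replicate 10 left out gave 3 and replicate 11 gave 12, while leaving out wild type replicate 13 or 14 gave 2), and 31 without both libraries that stood apart. With no filter, 5 of the 7 keratins with a read had a log2 fold change below 0, against 3 of 5, because Krt8 and Krt76 entered. Krt18 changed side, at 0.078 with all 6 libraries and limma but -0.073 with a pseudocount of 5, -0.57 by edgeR, -0.61 by DESeq2, and -0.51 to 0.90 without each library (negative when p63 alphaKO replicate 9 or 10 was omitted, and likewise for replicates 13 and 14 of wild type), and Krt23 ranged from -0.64 to 0.32 without each library; the cause was not tested. Krt7, Krt4 and Krt80 kept their direction in all 16. Depth limits Krt8, Krt18 and Krt76, each with at most 32 reads in all.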
